A study of Mus musculus with 4 samples.

Results

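The 10 genes described here belong to neuropeptide and transmitter pathways of neurons, and 7 of them had more than 1 UMI (unique molecular identifier, which counts 1 captured transcript) in the early gut neurons of these libraries. They were taken by name, as 10 of the 28692 genes in the count tables, with earlier results of these data known. *Cartpt*, *Gal*, *Vip*, *Npy*, *Tac1* and *Tac2* encode the precursors of neuropeptides, *Nos1* encodes the neuronal nitric oxide synthase, and *Th*, *Ddc* and *Slc18a2* encode 2 enzymes and the vesicular transporter of the monoamine pathway. They were followed in single stromal cells of mouse embryos at E12.5 (embryonic day), in 2 libraries of small intestine (SI) and 2 of large intestine with the cecum (LI). All 4 libraries came from untreated embryos of the EYFP (C57BL/6) strain, each library pooled several embryos of 1 experiment, and sorted cells were live, YFP+ and β1 integrin+ and lacked EpCAM, CD31, Ter119 and CD45. No marker of neurons was part of that sort, so the neurons described are those that passed a gate set for mesenchymal stromal cells (MSC). Other label fields of these libraries name adult tissue, and stage and region follow the sample titles.

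In the gut, neural crest cells that carry *Sox10* migrate along the intestine and give rise to neurons and glia. Their neurons later signal with acetylcholine, nitric oxide and a mix of peptides cut from larger precursors in dense-core granules. A passing phase with catecholamine enzymes is a known trait of some of the young neurons, before the adult transmitter classes have formed.

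Of 22094 kept cells, 229 were taken as neurons (at least 2 of *Stmn2*, *Ina* and *Prph* with a UMI). LI replicates 1 and 2 held 32 and 43 of them, and SI replicates 1 and 2 held 66 and 88. Another 748 cells with a *Sox10* UMI and fewer neuron markers were taken as progenitors, and 21117 as other cells. Of the 5 sensory neuron markers measured, *Prrxl1* had a UMI in 43 of the 229 neurons (18.8%) and *Tlx3* in 41 (17.9%), against 0.0900% and 0.365% of other cells. *Pou4f1* and *Avil* each had one in 1 neuron and *Neurog1* in 0, which allows a share of neurons with a UMI of up to 1.31%. The sensory list summed to 31.8 to 43.5 CPM (UMIs scaled to a total of 1000000) in LI neurons and 41.6 to 51.6 CPM in SI neurons, against 1.32 to 2.17 CPM in other cells, and its part in the results was not tested. The sympathetic gene *Hmx1* had a UMI in 1 neuron. The sympathetic and chromaffin list, which shares *Insm1* and *Chgb* with enteric neurons, summed to 177 to 216 CPM in LI neurons and 182 to 195 CPM in SI neurons, against 170 to 251 CPM and 116 to 208 CPM in other cells. Of 8 endocrine genes, *Neurod1* and *Pax6* each had a UMI in 1 neuron and 6 had none, *Neurog3*, *Gcg*, *Ins1* and *Ins2* among them.

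The libraries held 31630548 to 62886525 UMIs. LI replicate 1 was the shallowest, and its neurons had a median of 8316 UMIs against 11528.5 to 19775 in the other libraries. Libraries of different samples shared 8 to 15 cell barcodes per pair. Levels are given in CPM over all UMIs of a cell group in a library. Each UMI marks 1 end of a transcript, so no length enters a level.

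3 of the 10 genes carry the full cAMP response element TGACGTCA, the binding sequence of CREB-family factors, in the 300 bases around their RefSeq start (build GRCm38.p6, 250 bases before and 50 after). These were *Cartpt*, *Th* and *Slc18a2*, shown here because they hold different places in the results: a peptide gene and an enzyme gene called higher in neurons than in progenitors, and a transporter gene that was not. The element, searched on both strands, is in capitals, and each stretch runs 5′ to 3′ on the strand of the gene.
Cartpt (chr13:99900746-99900845, minus strand, element 112 bases before the start): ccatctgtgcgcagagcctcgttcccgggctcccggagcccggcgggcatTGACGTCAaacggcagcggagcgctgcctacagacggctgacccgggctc
Th (chr7:142899996-142900095, minus strand, element 45 bases before the start): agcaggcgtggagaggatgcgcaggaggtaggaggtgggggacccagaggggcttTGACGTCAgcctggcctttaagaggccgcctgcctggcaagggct
Slc18a2 (chr19:59260824-59260885, plus strand, element from 4 bases before the start): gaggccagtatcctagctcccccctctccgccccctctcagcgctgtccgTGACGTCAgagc
Of all 32851 promoters of that length, 1.79% hold TGACGTCA. The shorter core TGACG, which lies within the full element, is in 20.8% of all promoters and in those of 7 of the 10 genes, the other 4 being *Nos1*, *Tac1*, *Vip* and *Gal*. A match in these letters is a description of the window and was not tested against any binding.

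*Cartpt*, which encodes the precursor of the CART peptides, and *Gal*, which encodes galanin, were the most abundant of the 10 genes in neurons. *Cartpt* stood at 4514 and 4159 CPM in the LI libraries and at 2751 and 2186 CPM in the SI libraries. *Gal* stood at 1740 and 1554 CPM in LI and at 1162 and 849 CPM in SI. For both genes each LI library lay above each SI library. *Vip*, the vasoactive intestinal peptide gene, was far lower, at 99.0 and 72.1 CPM in LI and 52.7 and 34.0 CPM in SI.

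*Nos1* was at 134 and 155 CPM in LI neurons and at 39.0 and 17.0 CPM in SI neurons. In GENCODE vM21 *Nos1* (chr5:117781032-117958840, plus strand) shares exons with the antisense gene *Gm26995*, and *Slc18a2* (chr19:59260896-59296012, plus strand) with *Gm29261*. Whether the counting used strand is not given in the sources used here, so UMIs of these pairs are uncertain to that extent. The enzymes and the transporter of the monoamine pathway lay lower still. *Th*, which encodes the rate-limiting tyrosine hydroxylase, was at 35.4 and 19.9 CPM in LI and 22.9 and 35.9 CPM in SI, with the regions overlapping. *Ddc*, the decarboxylase that follows it, was at 10.6 and 13.7 CPM in LI and 18.3 and 26.4 CPM in SI. *Slc18a2*, which loads monoamines into vesicles, was at 28.3 and 32.3 CPM in LI and 12.6 and 21.7 CPM in SI.

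Over the 4 libraries the order of mean levels in neurons was *Cartpt* (3403 ± 1112 CPM, SD, n = 4), *Gal* (1327 ± 399), *Nos1* (86.5 ± 68.6), *Vip* (64.5 ± 27.8), *Th* (28.5 ± 8.30), *Slc18a2* (23.7 ± 8.61) and *Ddc* (17.3 ± 6.89). The first 2 lay apart from all others in each library. Among the other 5, the ranges of neighbours in the order overlapped over the 4 libraries.

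The remaining peptide genes were at or near 0 in neurons. *Npy*, the neuropeptide Y gene, had 1 UMI in 1 of the 229 neurons. *Tac1*, which encodes substance P and neurokinin A, and *Tac2*, which encodes neurokinin B, had 0 UMIs in all 229, which allows a share of neurons with a UMI of up to 1.31% for counting error and sets no limit on neurons with transcripts that were not captured. At this depth their transcription in neurons was not detectable.

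**Figure D1:**
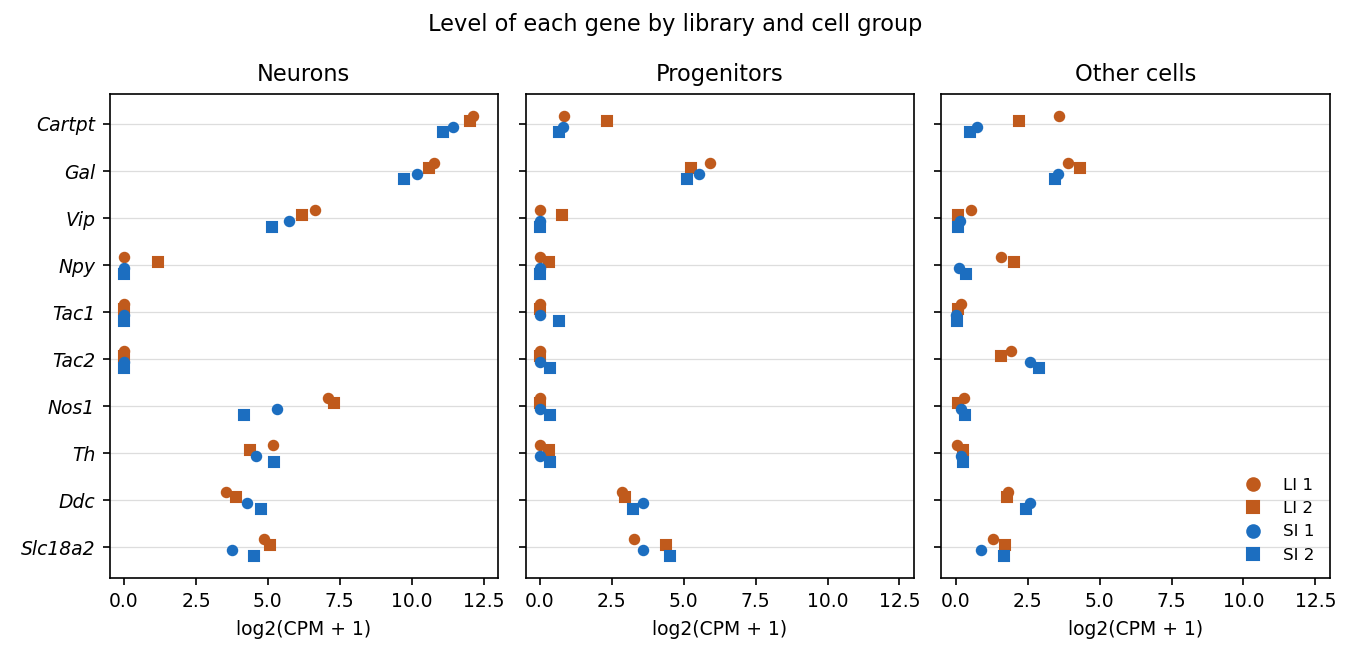
Levels of the 10 genes as log2(CPM + 1) on the x axis, in neurons, progenitors and other cells, with 1 point per library (LI in orange, SI in blue; circles are replicate 1 and squares replicate 2). *Cartpt* and *Gal* lie farthest right in neurons, *Tac1* and *Tac2* lie at 0 there, and *Gal*, *Ddc* and *Slc18a2* keep a level in progenitors.

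To ask which of these genes mark neurons against the cells they arise from, UMIs were summed per library and cell group and neurons were compared with progenitors by edgeR's quasi-likelihood test with library as a block. A gene was called at a Benjamini-Hochberg adjusted p under 0.05 over all 11523 genes tested. *Cartpt*, *Nos1*, *Vip*, *Th*, *Gal* and *Ddc* were called higher in neurons, *Slc18a2* was tested and not called, and *Npy*, *Tac1* and *Tac2* fell under the filter on low counts. Of all genes tested, 27.1% were called higher in neurons. A gene near 0 in progenitors enters this test only through its level in neurons, so for *Cartpt*, *Nos1*, *Vip* and *Th* the call and its size are a description.

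The largest of these differences was in *Cartpt*, at a log2 fold change of 10.76 ± 0.61 (SE). In progenitors *Cartpt* had 22 UMIs in all, at 0.568 to 4.02 CPM, so nearly all of its transcripts were in neurons. *Nos1*, *Vip* and *Th* had 1, 3 and 2 UMIs in the 748 progenitors. Summed over libraries, their neuron levels were 835 times (*Nos1*, 95% counting interval 148 to 33149), 218 times (*Vip*, 73.2 to 1066) and 163 times (*Th*, 43.8 to 1370) those of progenitors.

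*Gal* differed in kind, because progenitors held it too. It was at 59.1 and 36.7 CPM in LI progenitors and at 45.3 and 33.8 CPM in SI progenitors, and it rose in neurons by 4.74 ± 0.17 on the log2 scale (adjusted p = 1.74e-10). These progenitor UMIs came from 51 of the 748 cells, with a median of 4 UMIs and up to 78 in 1 cell, and 14 cells had 10 or more. *Gal* in progenitors was thus held by few cells at a high level.

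*Ddc* and *Slc18a2* were spread thinly over both groups. *Ddc* was at 6.31 to 11.0 CPM in progenitors and was called 0.93 ± 0.27 higher in neurons (log2, adjusted p = 0.0103), a call that was lost without SI replicate 2 (0.66, adjusted p = 0.15). *Slc18a2* was at 8.67 and 19.9 CPM in LI progenitors and 11.0 and 22.2 CPM in SI progenitors, which overlapped the neurons. Its difference was 0.33 ± 0.27 (adjusted p = 0.311). A single UMI was the usual finding for both, in 83 of the 90 progenitors with a *Ddc* UMI and in 139 of the 168 with a *Slc18a2* UMI.

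Against other cells, the same 7 genes were called higher in neurons, where 27.4% of all genes tested were. The log2 fold changes were 10.35 ± 0.51 for *Cartpt*, 8.66 ± 0.43 for *Vip*, 8.46 ± 0.61 for *Nos1*, 7.35 ± 0.41 for *Th*, 6.50 ± 0.17 for *Gal*, 3.62 ± 0.28 for *Slc18a2* and 2.19 ± 0.26 for *Ddc*. *Vip*, *Nos1* and *Th* had 22, 27 and 25 UMIs in the 21117 other cells and entered this test through their neuron levels, so their calls too are a description. Progenitors in turn held more *Slc18a2* (3.28 ± 0.23, adjusted p = 5.2e-08), *Gal* (1.76 ± 0.16, adjusted p = 8.11e-07) and *Ddc* (1.26 ± 0.23, adjusted p = 0.000383) than other cells, in a comparison where 23.3% of genes were called higher in progenitors. For *Cartpt* the progenitors and other cells differed by -0.41 ± 0.92 (adjusted p = 0.74). That value turned to 1.47 (adjusted p = 0.00711) once other cells with a UMI of any neuron marker were left out.

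Of all UMIs in kept cells, neurons held 94.7% for *Cartpt*, 87.0% for *Vip* and 58.2% for *Gal*. For *Gal* 7.51% lay in progenitors and 34.3% in other cells, while for *Ddc* 80.0% and for *Slc18a2* 51.4% lay in other cells, which are by far the most numerous. Most UMIs of *Cartpt*, *Vip* and *Gal* were thus in neurons, and most of those of *Ddc* and *Slc18a2* were not.

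The share of neurons with a UMI was also compared. Neurons were deeper than other cells, with medians of 8316 to 19775 against 4186 to 8715.5 UMIs per library, so each cell was also thinned to 3000 UMIs, which left out 5 neurons, 10 progenitors and 1364 other cells. A *Gal* UMI was found in 165 of 229 neurons (72.1%) and, after thinning, in 132 of 224 (58.9%, exact 95% interval 52.2 to 65.4). *Cartpt* was found in 125 (54.6%) and in 108 after thinning (48.2%, 41.5 to 55.0). Every other gene of the list was found in 27.5% of neurons or fewer before thinning.

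*Th* was found in 63 neurons, *Nos1* in 54, *Slc18a2* in 48, *Vip* in 44 and *Ddc* in 43 before thinning, and in 18, 28, 16, 21 and 15 after it. The shares after thinning were thus 8.04% for *Th*, 7.14% for *Slc18a2*, 9.38% for *Vip* and 6.70% for *Ddc*. In other cells, which show the level outside marked neural cells with free RNA included, the thinned shares were 0.0253% for *Th*, 0.0354% for *Nos1*, 0.0203% for *Vip*, 0.258% for *Cartpt* and 0.582% for *Gal*. *Ddc* (1.13%) was above all of these there, and *Slc18a2* (0.491%) was above all of them but *Gal*. The share was above that of other cells in 4 of 4 libraries for each of the 7 genes, for which an exact permutation test over 4 libraries gave p = 0.125, the smallest it can give. Against progenitors, *Ddc* and *Slc18a2* were higher in 3 of 4 libraries (exact permutation p = 0.25 and 0.375).

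The number of transcripts per cell set the genes apart further. A neuron with *Cartpt* held a median of 48 of its UMIs and up to 354, and 99 of 229 neurons held 10 or more. For *Gal* the median was 11 and the maximum 225. *Nos1* and *Vip* had a median of 2 and maxima of 29 and 20, and the 23 neurons richest in each held 79.1% and 86.3% of its UMIs. *Th*, *Ddc* and *Slc18a2* never passed 5 UMIs in a neuron, and 44 of the 63 neurons with *Th* had a single one.

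**Figure D2:**
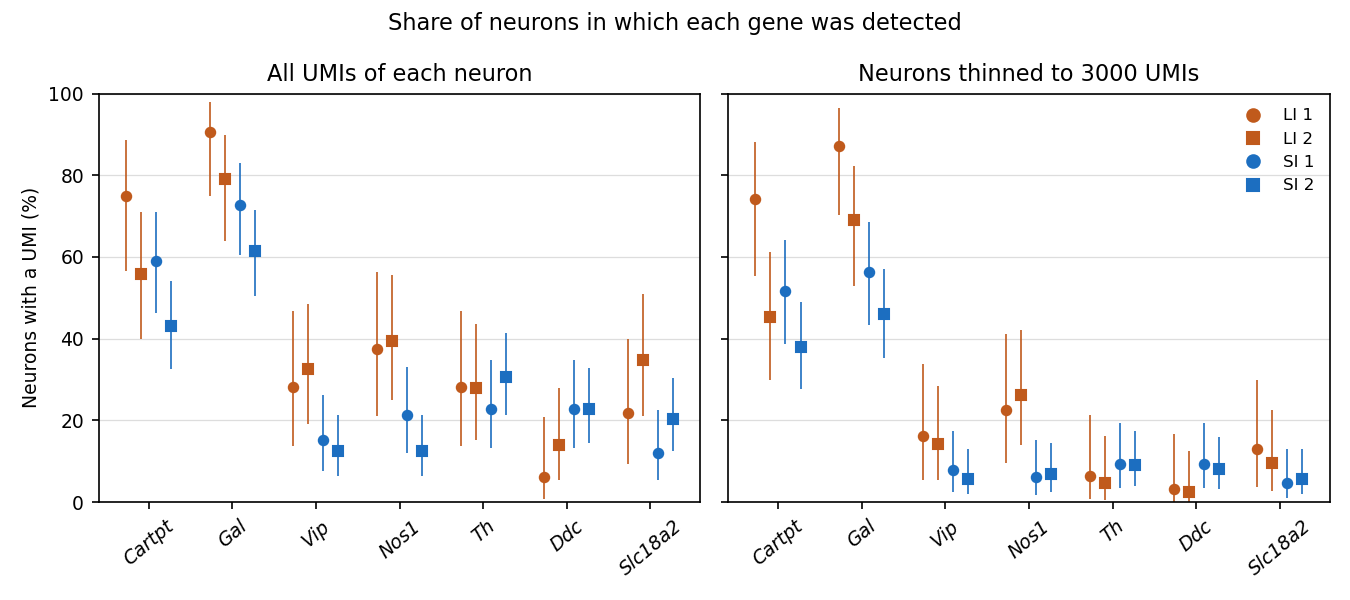
Share of neurons with a UMI of each of 7 genes (y axis, percent) by library, for all UMIs of a neuron (left) and for neurons thinned to 3000 UMIs (right); bars are exact 95% binomial intervals for counting error. *Gal* and *Cartpt* were found in the largest shares, and for *Nos1* and *Vip* both LI points lie above both SI points in each panel.

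Several of the genes were found in the same neurons. Of 229 neurons, 19 had a UMI of none of the 10 genes, 42 of 1, 58 of 2, 66 of 3, 35 of 4 and 9 of 5 or more, so 168 held at least 2. After thinning the number with at least 2 was 105 of 224. Counts of co-detection depend on depth, as the last comparison shows, and cells of 1 library are not replicates, so they are given without a test.

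*Vip* and *Nos1* were often found in the same neurons. Of 44 neurons with *Vip*, 24 had *Nos1* (54.5%), against 30 of 185 without *Vip* (16.2%). The order was the same in each library, with 6 of 9 against 6 of 23 and 9 of 14 against 8 of 29 in the LI libraries, and 5 of 10 against 9 of 56 and 4 of 11 against 7 of 77 in the SI libraries. After thinning, 6 of 21 neurons with *Vip* and 22 of 203 without it had *Nos1*. *Gal* was found in 41 of the 44 neurons with *Vip* (93.2%) and in 67.0% of those without. *Cartpt* was found in 34 of the 44 (77.3%) and in 49.2% of those without.

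The same shares were taken for the monoamine genes, whose difference from those of *Vip* and *Nos1* was not tested. Of 63 neurons with *Th*, 14 had *Ddc* (22.2%) and 17 had *Slc18a2* (27.0%), against 17.5% and 18.7% of neurons without *Th*. After thinning, 3 of 18 neurons with *Th* (16.7%) and 13 of 206 without it (6.31%) had *Slc18a2*, and none of the 18 had *Ddc*. *Cartpt* was found in 29 of the 63 neurons with *Th* (46.0%) and in 57.8% of those without. *Nos1* and *Ddc* shared 4 neurons. *Ddc* was found in 7.41% of neurons with *Nos1* and in 22.3% of those without. *Nos1* was found in 9.30% of neurons with *Ddc* and in 26.9% of those without.

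**Figure D3:**
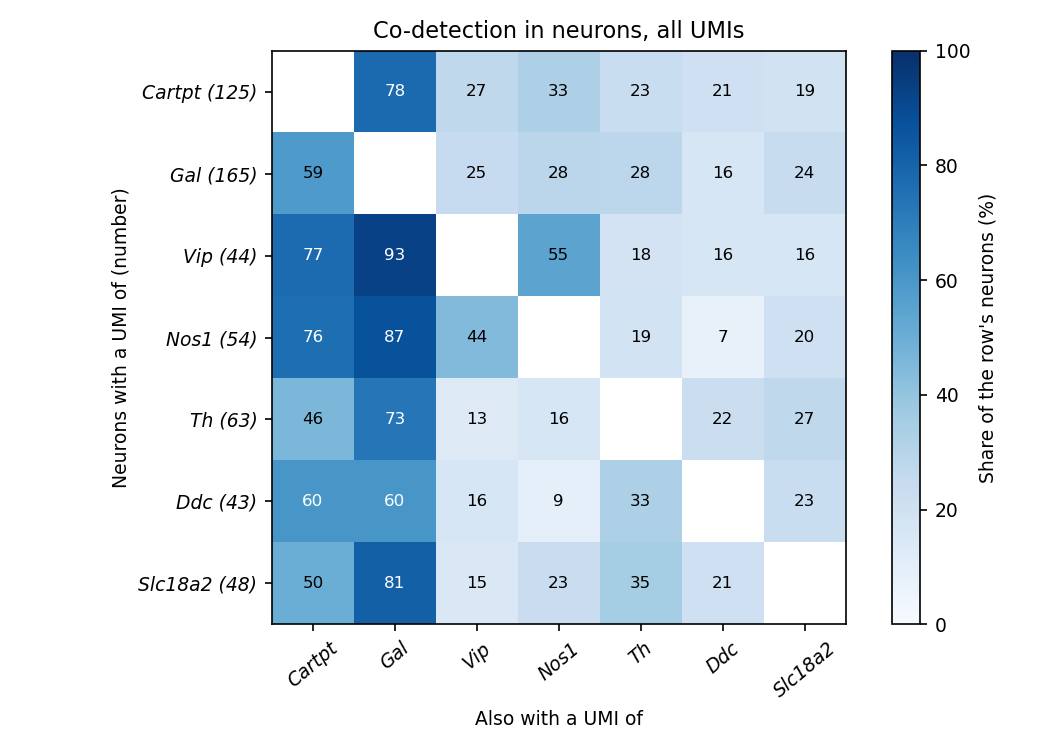
Co-detection in the 229 neurons: each cell gives the percent of neurons with a UMI of the row's gene (number in brackets) that also had a UMI of the column's gene, before thinning. *Nos1* was found in 55% of neurons with *Vip* and in 9% of neurons with *Ddc*.

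Levels of the other genes were then compared between neurons with and without a UMI of 1 of them, summed per library, with library as a block. Only *Nos1* met the demand of 10 neurons on each side in every library. None of the 2 others tested passed in that split, where 0.217% of all genes were called. *Cartpt* was 0.64 ± 0.27 higher (log2) in neurons with *Nos1* (adjusted p = 0.674) and *Gal* was -0.25 ± 0.30 (adjusted p = 0.932). Of these, 1 had an unadjusted p under 0.05 and DESeq2 called 0, while *Cartpt* passed without SI replicate 2 (1.05, adjusted p = 0.000813).

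With a demand of 5 neurons, chosen after the numbers of neurons were seen, *Cartpt*, *Vip*, *Th* and *Slc18a2* could be used too. Neurons with *Cartpt* held more *Vip* (2.78 ± 0.38, adjusted p = 3.47e-06) and slightly less *Gal* (-0.27 ± 0.08, adjusted p = 0.02), in a split where 15.6% of all genes were called. *Vip* was found in 10 of 104 neurons without *Cartpt*, with 0 of 8 in LI replicate 1 and 0 of 27 in SI replicate 1. It entered this test through neurons with *Cartpt*, so the *Vip* call is a description. Neurons with *Vip* held more *Nos1* (1.40 ± 0.23, adjusted p = 0.000423), where 0.783% were called. In the splits by *Th* and by *Slc18a2*, where 0.25% and 0% of genes were called, none of the members tested passed (4 in each, of which 2 and 1 had an unadjusted p under 0.05 and 0 passed in DESeq2). The *Gal* call was lost in DESeq2 (adjusted p = 0.243), with thinned cells (0.713), and without LI replicate 2 (0.195) or SI replicate 2 (0.21). The *Nos1* call was lost in DESeq2 (adjusted p = 0.092), without LI replicate 2 (0.222) and among neurons with all 3 markers (0.644).

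For the 5 members used in these splits, the genes most like each were ranked by the mean log2 ratio of CPM in neurons with against without it (10 CPM added, 4 libraries, genes found in at least 10% of neurons). For *Cartpt* they were *Sncg* (γ-synuclein, 4.62 ± 1.33), *Prph* (peripherin, 4.46 ± 0.77) and *Ntng1* (netrin G1, 4.34 ± 1.24). For *Nos1* they were *Vip* (1.82 ± 1.38, above 0 in 3 of 4 libraries), *Plk2* (1.29 ± 0.56) and *Kcnab1* (1.28 ± 0.70). For *Vip* they were *Ptgir* (1.54 ± 0.68), *Kcnab1* (1.46 ± 1.05) and *Pde4b* (1.31 ± 0.60). For *Th* they were *Crabp1* (1.35 ± 0.83), *Nutf2* (1.16 ± 1.10) and *Rgs4* (1.13 ± 0.48), and for *Slc18a2* *AY036118* (1.09 ± 1.17), *Apba1* (1.09 ± 1.28) and *Cenpe* (0.99 ± 0.71). For *Slc18a2*, *AY036118* and *Apba1* were above 0 in 3 of 4 libraries with a spread larger than their ratio, so that order does not stand out from the spread between libraries. The ratios for *Cartpt* were thus well above those for the other 4.

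*Prph* is an intermediate filament of peripheral neurons and 1 of the 3 markers that chose the neurons, and the following is a description. *Cartpt* was found in 97 of 123 neurons with a *Prph* UMI (78.9%) and in 28 of 106 without (26.4%). In neurons with *Prph* its level was 7311 and 7568 CPM in LI and 4119 and 3435 CPM in SI, and in those without 2452 and 605 CPM in LI and 430 and 73.7 CPM in SI. *Gal* ran the other way, at 992 and 741 CPM in LI and 916 and 591 CPM in SI with *Prph*, against 2292 and 2403 CPM in LI and 1580 and 1286 CPM in SI without. In each library *Cartpt* was thus higher and *Gal* lower in neurons with *Prph*.

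*Nos1* followed *Prph* in LI but not in SI. In neurons with *Prph* it was at 308 and 251 CPM in LI and at 38.3 and 10.5 CPM in SI. In neurons without *Prph* it was at 6.14 and 55.9 CPM in LI and at 40.2 and 28.0 CPM in SI. *Nos1* was found in 11 of 14 and 12 of 21 LI neurons with *Prph* and in 9 of 40 and 4 of 48 SI neurons with *Prph*. *Th* was similar on both sides, at 24.3 ± 5.95 CPM with *Prph* and 32.7 ± 12.1 CPM without (SD, n = 4).

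To ask whether the signals of early neurons differ along the gut, the 2 SI sums of neurons were compared with the 2 LI sums. *Nos1* and *Cartpt* were called, both higher in LI, where 0.312% of the 8336 genes tested were called higher in LI. Across all genes tested the median log2 fold change was 0.00. *Nos1* was lower in SI by a log2 fold change of -2.44 ± 0.32 (adjusted p = 0.000121) and *Cartpt* by -0.83 ± 0.17 (adjusted p = 0.0167).

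The *Nos1* call held without each library in turn, with log2 fold changes of -3.11 to -1.93. The *Cartpt* call was lost without SI replicate 1 (adjusted p = 0.0912) or SI replicate 2 (adjusted p = 1), at fold changes of -1.01 and -0.68. After thinning, *Nos1* was found in 24.4% ± 2.55 of LI neurons and 6.57% ± 0.46 of SI neurons (SD, n = 2), with an exact permutation p = 0.333, the smallest that 2 against 2 libraries can give. Neurons with all 3 markers made up 13 of 32 and 17 of 43 LI neurons and 40 of 66 and 47 of 88 SI neurons, and their part in the differences was measured by keeping those neurons alone. The *Nos1* and *Cartpt* differences were then -3.63 (adjusted p = 7.79e-07) and -1.09 (adjusted p = 0.000397).

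*Gal* and *Vip* had the same sign but were not called. *Gal* differed by -0.73 ± 0.19 (adjusted p = 0.103) and *Vip* by -0.94 ± 0.31 (adjusted p = 0.323). Without LI replicate 2 both passed (adjusted p = 0.000814 and 0.0255), and *Gal* passed also without LI replicate 1 (adjusted p = 0.0219). Of the monoamine genes, *Slc18a2* differed by -0.84 ± 0.42 (adjusted p = 0.746), *Ddc* by 0.80 ± 0.48 (adjusted p = 0.863) and *Th* by 0.26 ± 0.41 (adjusted p = 0.979). For *Ddc* and *Slc18a2* the regions did not overlap, in opposite directions, on 58 and 68 UMIs.

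**Figure D4:**
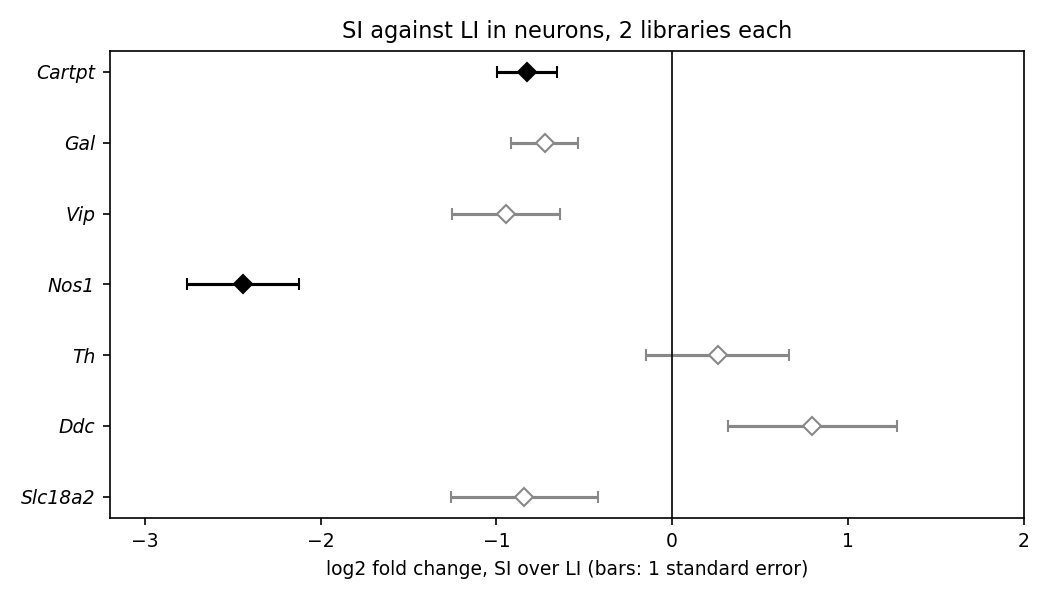
Log2 fold change of SI over LI in neurons for 7 genes, with bars of 1 standard error; filled black points were called at an adjusted p under 0.05. *Nos1* (-2.44) and *Cartpt* (-0.83) were called, and *Th* and *Ddc* lie to the right of 0.

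In progenitors *Gal*, *Ddc* and *Slc18a2* passed the filter and none was called between regions, where 0.5% of 10206 genes were. Their fold changes were -0.26 ± 0.29, 0.52 ± 0.37 and 0.07 ± 0.39, none had an unadjusted p under 0.05, and DESeq2 called 0. Whether the region difference in neurons differed from that in progenitors was tested as an interaction. None of the 7 genes passed, where 0.871% of all genes did. *Nos1*, *Th* and *Vip* had 1, 2 and 3 UMIs in progenitors, so their region difference there could not be measured. For these genes the test cannot decide. In simulated data this fit recovered 12% of 2-fold and 72% of 4-fold changes, so a lack of calls does not show like effects. The smallest adjusted p was 0.371, for *Gal*, 2 genes had an unadjusted p under 0.05, and DESeq2 called 0.

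Of the other transmitter genes, the catecholamine list had 10 of 16 genes tested in neurons against progenitors, 7 higher and 1 lower in neurons, with a median log2 fold change of 0.57 (-0.03 over all genes). For this and the lists that follow, 27.1% of all genes tested were called higher and 28.1% lower in neurons, and genes near 0 in progenitors passed the filter through neurons, so the counts are a description. *Dbh*, the enzyme that makes noradrenaline from dopamine, was at 306 ± 72.6 CPM in neurons and 6.40 ± 2.52 in progenitors (SD, n = 4, log2 fold change 5.25). Its level was above that of *Th* in each library, and 52 of the 63 neurons with *Th* had a *Dbh* UMI, as did 71.7% of those without. *Cyb561*, which supplies electrons to *Dbh* in granules, rose from 1.28 ± 0.74 to 195 ± 30.4 CPM, and the third of that list was *Th* itself.

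All 3 acetylcholine genes tested were near 0 in progenitors and were called higher in neurons, the vesicular transporter *Slc18a3* (114 ± 40.7 CPM against 0.281 ± 0.203), the choline transporter *Slc5a7* (56.6 ± 17.7 against 0.96 ± 0.92) and the esterase *Ache* (42.5 ± 8.11 against 0.513 ± 0.744). *Chat*, the enzyme that makes acetylcholine, passed the filter only between regions. It was at 0 and 4.97 CPM in LI neurons and 16.0 and 20.8 CPM in SI neurons (log2 fold change 2.29, adjusted p = 0.273). None of the 3 serotonin genes or of the 7 genes for glutamate and GABA passed the filter.

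Of 20 other neuropeptide genes 7 were tested, with 5 higher and 1 lower in neurons and a median of 1.34. The leading ones were *Adcyap1* (PACAP, 58.7 ± 29.5 CPM in neurons against 1.94 ± 0.96), *Cck* (cholecystokinin, 314 ± 132 against 111 ± 27.4) and *Agrp* (6.42 ± 3.46 against 0). *Cck* was thus a peptide gene that progenitors also held. *Agrp* shares exons with *Gm5914* on its own strand and with *Ctcf* on the other, and its UMIs are uncertain for that reason. Of the genes that cut and pack peptides 12 of 14 tested were called higher in neurons and none lower, with a median of 5.68 (5.37 with *Pcsk1* and *Scg2*, at 0 in progenitors, set to the bound of 3 UMIs over all progenitors), led by *Pcsk1n* (562 ± 183 against 9.83 ± 2.10), *Scg3* (251 ± 29.4 against 6.50 ± 2.14) and *Chga* (84.0 ± 19.8 against 1.36 ± 0.43).

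Of 21 listed genes for receptors and effectors of these signals 4 were tested, and *Adra2a* (8.98 ± 7.15 against 0.256 ± 0.372) and *Prkg1* (17.6 ± 8.38 against 7.40 ± 3.16) were called higher in neurons. Against other cells none of the 4 was called higher and 3 were lower (median -3.00, where 33.3% of all genes were lower), with *Prkg1* at 44.4 ± 8.30 CPM there. The pan-neuronal genes were called higher in 19 of 19 tested (median 4.47), in neurons that were chosen by other neuronal genes, led by *Elavl3*, *Mapt* and *Nsg1* (log2 fold changes 4.42, 6.31 and 2.34). The enteric transcription factors rose in 10 of 14 (median 1.27), led by *Phox2a* (6.73), *Etv1* (2.00) and *Hoxb5* (2.05). Of the progenitor and glial genes 7 of 10 fell and 1 rose (median -3.39), in a comparison with progenitors chosen by a *Sox10* UMI, led by *Sox2* (-4.62), *Erbb3* (-6.88) and *Foxd3* (-5.13).

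Between regions, 2 of 19 pan-neuronal genes and 2 of 11 enteric transcription factors tested in neurons were called, all higher in SI, where 0.276% of all genes were, and no gene of the other lists was. These were the neurofilaments *Nefm* (1.11 ± 0.19) and *Nefl* (1.16 ± 0.21), which share exons on opposite strands, and the homeobox genes *Hoxb5* (1.58 ± 0.26) and *Tlx2* (1.10 ± 0.21). In progenitors *Tlx2* (2.05 ± 0.33) and *Nefm* (1.17 ± 0.21) were higher in SI, and *Ebf1* (-2.74 ± 0.47), *Gng3* (-2.27 ± 0.37) and *Pam* (-1.70 ± 0.28), the peptide amidating enzyme, were higher in LI. None of the 13 genes tested for peptide processing was called between regions in neurons.

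*Tac2* was found outside the neural cells at this stage. Of 714 *Tac2* UMIs, 713 lay in other cells, 1 in a progenitor and 0 in neurons. In mesenchyme (other cells with a *Pdgfra* UMI that were not marked as smooth muscle or mesothelium) it was at 1.60 and 1.77 CPM in LI and 5.07 and 8.48 CPM in SI. In the 9063 other cells with neither those marks nor a *Pdgfra* UMI it was at 2.94 and 3.34 CPM in LI and 8.11 and 13.6 CPM in SI, above mesenchyme in each library, and these held 387 of the UMIs against 249 in mesenchyme. In mesenchyme both SI libraries lay above both LI libraries, with a log2 fold change of 2.13 ± 0.36 (adjusted p = 0.0203), where 0.936% of genes were called higher in SI.

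Within mesenchyme *Tac2* was higher in cells that had a UMI of *Wnt4* or *Slit2*. This pair of genes was chosen with earlier results of these data known, and the position of such cells in the gut wall was not measured. With such a UMI it was at 6.40 and 5.58 CPM in LI and 15.2 and 24.6 CPM in SI, and without at 0.911 and 0.426 CPM in LI and 2.87 and 1.64 CPM in SI. The difference was 3.12 ± 0.26 (adjusted p = 1.78e-07), where 3.67% of genes were called higher with such a UMI. *Tac2* had 10 UMIs in LI mesenchyme without such a UMI and entered this test through the cells with one, so the call is a description. Without library as a block the fold change was 3.13 and the call was lost (adjusted p = 0.304). *Ddc*, the only other of the 10 genes tested there, did not differ beyond its error (0.08 ± 0.25, adjusted p = 0.934).

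Against other cell groups *Tac2* fell under the filter on low counts and was not tested. Summed over libraries its level in mesenchyme was 0.702 times (95% counting interval 0.597 to 0.826) that in the unmarked cells without *Pdgfra*, which was not tested further. It was 3.14 times (95% counting interval 2.39 to 4.18) its level in smooth-muscle-marked cells, and 3.40 times (1.82 to 7.18) that in mesothelial-marked cells. Against neurons, with 0 UMIs, a floor of 3 UMIs per library lay above the mesenchyme level in both LI libraries (10.6 and 3.73 CPM) and below it in both SI libraries (3.44 and 2.83 CPM), so a difference could be stated in SI only. Without the filter mesenchyme was called higher than smooth-muscle-marked cells, mesothelial-marked cells, progenitors and neurons, with adjusted p from 7.08e-06 against progenitors to 0.0494 against smooth-muscle-marked cells. Progenitors and neurons held 1 and 0 *Tac2* UMIs, so the calls against them are a description. The call against neurons does not lift the limit in LI. In smooth-muscle-marked cells LI replicate 1 stood apart, at 9.71 CPM against 0.746 to 1.41 CPM in the other libraries. In that library *Tac2* was thus lower in mesenchyme (1.60 CPM), and in the other 3 it was higher.

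*Npy* also lay outside the neural cells, but on the LI side. Of its 197 UMIs 195 were in other cells, 177 of them in LI. In other cells it was at 1.94 and 3.03 CPM in LI and 0.0894 and 0.267 CPM in SI, found in 37 of 5966, 58 of 4365, 4 of 4898 and 10 of 5888 cells. The region difference in other cells, a comparison added after the data were seen, was -3.60 ± 0.51 (adjusted p = 0.017), where 1.71% of genes were called higher in LI. *Npy* had 4 and 14 UMIs in other cells of SI and entered this test through the LI libraries, so the call is a description. In mesenchyme, where SI held 0 and 3 UMIs, it was -3.79 ± 0.82 and not called (adjusted p = 0.0518), but it passed without LI replicate 1 (adjusted p = 0.0316) or SI replicate 2 (0.00075).

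In the same added comparison *Tac2* was higher in SI (1.42 ± 0.28, adjusted p = 0.0496) and *Cartpt* higher in LI (-3.62 ± 0.60, adjusted p = 0.0292). The *Tac2* call was lost without SI replicate 2 (adjusted p = 0.136). The *Cartpt* difference was -1.26 and not called (adjusted p = 0.159) without other cells that had a UMI of a neuron marker. *Ddc* was at 2.49 and 2.44 CPM in LI and 4.91 and 4.45 CPM in SI in other cells and was not called (1.08 ± 0.24, adjusted p = 0.074), but passed without LI replicate 2 (adjusted p = 0.0384) and in DESeq2 (0.0393). Of 111 *Th* UMIs 25 lay in other cells, and *Tac1* had 10 UMIs in all kept cells.

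**Figure D5:**
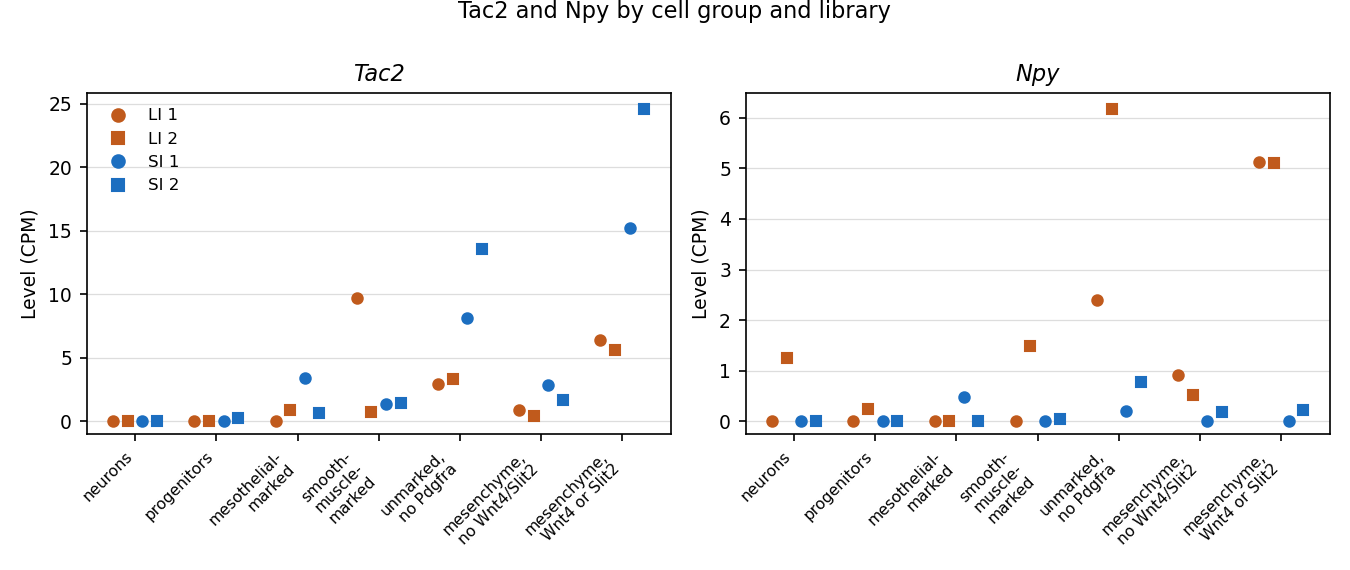
Levels of *Tac2* and *Npy* in CPM (y axis, from 0) by cell group, with 1 point per library (LI orange, SI blue). *Tac2* is at 15.2 and 24.6 CPM in SI mesenchyme with a *Wnt4* or *Slit2* UMI and at 8.11 and 13.6 CPM in SI cells without marks or *Pdgfra*, and *Npy* in the same groups is at 5.12 and 5.10 and at 2.39 and 6.17 CPM in LI.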

How the data were processed

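Single-cell RNA sequencing was performed by the authors with 10x Genomics chemistry, 3′ or 5′ (the kit of each library is not given in the sources used here). The deposited values are raw UMI counts per gene and barcode, and the submitters' processing notes name Cell Ranger 3.1.0, Seurat 3 and the mm10 build.

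Cells with at least 1000 genes and under 10% mitochondrial UMIs were kept. Scrublet (scanpy 1.11.5) marked only 1 to 6 cells per library by itself, so top-scoring cells were taken out instead, at 0.8% per 1000 cells. Neurons had at least 2 of *Stmn2*, *Ina* and *Prph*, progenitors a *Sox10* UMI and fewer of these. Mesothelial-marked cells had at least 3 of 6 markers (*Upk3b*, *Upk1b*, *Krt19*, *Krt7*, *Msln*, *Lrrn4*) and smooth-muscle-marked cells at least 4 of 6 (*Acta2*, *Myh11*, *Actg2*, *Cnn1*, *Des*, *Tagln*). Mesenchyme was the rest of other cells with a *Pdgfra* UMI. Counts were summed per library and group and tested in edgeR 4.0.16 (R 4.3.3; quasi-likelihood, TMM, filterByExpr, library as a block between cell groups), with DESeq2 1.42.0 as an alternative. Standard errors were derived from each fold change and its F statistic. The fits were tested on simulated data with known changes. Of 2-fold changes, 80% were recovered in neurons against progenitors and 20% between regions in neurons. The split by *Nos1* recovered 41% and the interaction 12%. Of 4-fold changes these fits recovered 100%, 94%, 79% and 72%, in that order.

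The members and gene lists were chosen with earlier results of these data known. Genes named from a list are the 3 called with the smallest adjusted p in neurons against progenitors and each gene called between regions in neurons or progenitors. Intervals and floors of 3 UMIs cover counting error only. Nothing in the labels ties a replicate number across regions. Promoters are from RefSeq, and gene overlaps from GENCODE vM21, which holds 28339 of the 28692 identifiers. Replicates are separate experiments on pooled embryos.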

Additional observations from a re-analysis of the deposited data

Results flagged for a closer look

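*Gal* went in opposite directions between regions in 2 kinds of cells. In mesenchyme it was higher in SI, at a mean of 1.76 CPM (1.47 and 2.04) against 0.922 CPM in LI (1.28 and 0.567), while in neurons each LI library lay above each SI library. The mesenchyme level rests on 72 UMIs in 30 of 6231 cells, and 2 cells, 1 in each SI library, held 40 of the 55 SI UMIs (16 and 24), where no LI cell held more than 2. Without the cell richest in *Gal* in each library, a step added after the data were seen, SI was lower, at a mean of 0.469 CPM (0.531 and 0.407) against 0.779 CPM in LI (1.12 and 0.441). The difference between the effects in neurons and mesenchyme was not tested, and the mesenchyme fold change was -0.18 in place of 1.23 (log2) once mesenchyme was taken without the demand for a *Pdgfra* UMI.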

How the results depend on the processing

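Of 526 alternative values of the fold changes, 471 kept their direction and side of the threshold, 18 lost a call, 23 gained one and 14 changed sign. None of the 26 called fold changes changed sign. Genes called in progenitors against other cells went from 3 to 5 without the filter on low counts, and to 5 with other cells that had no neuron marker UMI. Between regions in neurons 2 genes were called, and 1 to 4 when each library was left out in turn. With the replicate number as a block the count stayed at 2 and the *Tac2* difference in mesenchyme was 2.20. The labels do not say that a number marks a pairing, and over 2 pairs the deviations of same-numbered samples correlated at 0.177 in neurons and 0.305 in progenitors. The block brought *Npy* (-3.73, adjusted p = 1.02e-05) and *Ddc* (1.22, adjusted p = 0.00204) in mesenchyme past the threshold. Over all genes, region calls in neurons numbered 49, with 21 in DESeq2, 102 without the filter, 421 without LI replicate 2, 17 with thinned cells and 20 with all 3 markers demanded.

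In the split by *Nos1*, the count of 0 became 2 without the filter, 1 with all 3 markers demanded, and 0 to 2 with each library left out. For *Tac2* in mesenchyme against 4 groups, 0 became 4 without the filter and 0 to 4 with each library left out. Calls against neurons and progenitors, with 0 and 1 *Tac2* UMIs, are a description. *Tac2* with against without a *Wnt4* or *Slit2* UMI stood at 3.13 (adjusted p = 0.304) without the library block. Neurons with at least 2 of the genes fell from 168 to 105 on thinning.

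Signs changed as follows, and the cause was not tested. *Cartpt* in progenitors against other cells ran from -1.54 to 0.46 with each library left out (0.46 without LI replicate 1) and became 1.47 with other cells lacking neuron marker UMIs. *Th* between regions in neurons ran from -0.25 to 0.56 (-0.25 without LI replicate 2 and -0.16 without SI replicate 2). In progenitors *Gal* ran from -0.66 to 0.11 (without LI replicate 1) and *Slc18a2* from -0.47 (without SI replicate 2) to 0.88, with -0.22 without LI replicate 1 and -0.80 with thinned cells. *Gal* in mesenchyme became -0.18 without the *Pdgfra* demand, and its difference in mean CPM there went from 0.833 to -0.310 without the cell of each library richest in it, a step added after the data were seen. With all 3 markers demanded, *Cartpt* became -0.035 and *Gal* 1.30 in the split by *Nos1*, and *Cartpt* went from 0.34 to -0.44 in that by *Vip*. *Gal* in the split by *Nos1* ran from -0.83 to 0.22 (0.05 without LI replicate 1 and 0.22 without LI replicate 2).

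The number of neurons (32 and 43 in LI) and 2 libraries per region limit the precision of the region comparison, and shares for *Th*, *Ddc* and *Slc18a2* rest mostly on single UMIs per cell.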

Other observations

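The stromal cells that held *Npy* or *Tac2* differed in the other genes they carried. After thinning to 3000 UMIs, 51 other cells had *Npy*, 22 and 26 in the LI libraries and 1 and 2 in the SI libraries, so region is mixed into the comparison with other cells of both regions. Among these cells 54.9% had *Ebf1* (12.2% of other cells without *Npy*) and 35.3% *Crabp1* (6.22%). Of the 6 smooth muscle markers *Des* was found in 43.1% (16.1%), while *Acta2* (21.6% against 46.7%), *Tagln* (23.5% against 44.4%), *Actg2* (3.92% against 26.2%), *Cnn1* (1.96% against 14.2%) and *Myh11* (1.96% against 12.2%) had smaller shares in cells with *Npy*. The 222 cells with *Tac2* had *Slit2* in 34.7% (7.38% without), *Wnt4* in 11.7% (2.55%), *Col1a1* in 64.4% (38.6%) and *Col3a1* in 89.2% (82.2%), but *Pdgfra* in 17.1% (21.9%). *Ddc* in stroma was at 4.52 and 4.47 CPM in LI and 11.2 and 9.97 CPM in SI in mesothelial-marked cells. These genes were chosen after their values were seen and were not tested.

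Some genes were called lower in neurons that held *Vip*, *Nos1* or *Th*. The histone gene *Hist1h1b* differed by -2.71 with *Vip*, -2.96 with *Nos1* and -2.14 with *Th* (log2, edgeR adjusted p = 2.54e-05, 0.00145 and 0.000176). *Top2a*, which untangles DNA at division, differed by -2.03 with *Vip* and -1.59 with *Th* (adjusted p = 0.00222 and 0.00544). These genes too were named after their values were seen, and the splits share the same 229 neurons.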
